A study of Homo sapiens with 36 samples.

Results

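FLO1 is a human oesophageal adenocarcinoma cell line, and the cells described here carried a short hairpin RNA, shAPE1#3, against APEX1, the gene for the DNA repair and redox protein APE1. The comparison takes 6 of the series' 36 RNA-seq libraries: 3 of FLO1-shAPE1#3 cells that were not exposed and 3 of FLO1-shAPE1#3-ABS cells. ABS stands for an acidic bile salt mixture, given at 200 µM and pH 4 for 20 minutes and followed by 6 h in complete medium, as a model of gastro-oesophageal reflux. Both groups carried the hairpin stably, the labels call the replicates independent, and they give neither whether the line is a clone or a pool nor how unexposed cells were handled. Acid, bile salts and the changes of medium therefore cannot be told apart. FLO1 cells with a non-targeting hairpin (shControl) and with a second APEX1 hairpin (shAPE1#1), each with 3 unexposed libraries and 3 after the same ABS exposure, served for comparison, and all 3 lines were made from the same parental cells by stable transduction.

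Bile salts at low pH pass into cells, where they damage membranes, mitochondria and proteins. Misfolded protein in the cytosol releases heat shock factor 1, which switches on chaperones of the HSP70 family, and misfolded protein in the endoplasmic reticulum (ER) sets off the unfolded protein response through the sensors IRE1, PERK and ATF6. Signals from the cell surface run through MAP kinases to immediate early genes such as FOS, EGR1 and the NR4A nuclear receptors, whose transcripts normally rise and decay quickly. In the oesophagus, bile acids are also known for activating NF-kB and for their link to Barrett's metaplasia.

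The hairpin lowered its target. APEX1 (ENSG00000100823, chr14:20455191-20457772 on GRCh38) was measured at 38.7, 37.0 and 36.5 CPM (counts scaled to the size of each library) in the unexposed shAPE1#3 libraries, against a mean of 200.4 ± 3.74 CPM (SD, n = 3) in unexposed shControl libraries. That is a 5.36-fold lower level (log2 fold change -2.42 ± 0.08, edgeR quasi-likelihood test, adjusted p = 3.24e-14). After ABS, APEX1 stood at 31.3, 36.9 and 34.0 CPM in shAPE1#3 cells, and the change did not pass the test (log2 fold change -0.13 ± 0.08, adjusted p = 0.581).

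The 6 libraries held between 24212171 and 40654584 counts, and mitochondrial genes took 3.03 to 3.61% of them. The first principal component of the 6, with 34.2% of the variance, separated ABS from unexposed libraries. Of the simple epithelial keratins, KRT8 lay between 1508 and 1645 CPM and KRT18 between 999.9 and 1162 CPM. KRT7 and KRT19 were much lower, at 13.65 to 18.97 CPM and 3.706 to 10.95 CPM. The epithelial adhesion genes EPCAM and CDH1 lay at 0.634 to 1.27 CPM and 8.68 to 10.5 CPM, the mesenchymal filament gene VIM lay between 3144 and 3400 CPM, and the leukocyte gene PTPRC was at 0 in all 6. Among columnar genes, the mucin MUC5AC stood at 5.08 CPM in unexposed replicate 1 and 3.497 CPM in ABS replicate 3, and at no more than 0.154 CPM in the other 4. The columnar genes TFF1 and TFF3 went the same way. They stood at 2.12 and 0.622 CPM in unexposed replicate 1 and at 1.29 and 0.4305 CPM in ABS replicate 3. In the other 4 libraries they were at no more than 0.0373 and 0.0309 CPM. AGR2 was also highest in those 2 libraries, while CDX2 and VIL1 were not. Outside the columnar genes, EPCAM, KRT19, KRT13 and TP63 were highest in the same 2 libraries. KRT19 stood at 6.521 CPM in unexposed replicate 1 and 10.95 CPM in ABS replicate 3. In the other 4 libraries it was at no more than 4.68 CPM. KRT13 and TP63 were low throughout, at no more than 0.5973 and 0.2738 CPM. CDH1, KRT7, KRT8, KRT18, KRT5 and KRT14 did not have their highest levels in those 2 libraries. The deposited column name of ABS replicate 3 also ends in an additional suffix, with a library number that does not continue the sequence of its neighbours; the reason was not given. With both of those libraries left out, an alternative chosen after seeing these values, 104 genes passed in place of the 306 given next.

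In FLO1 shAPE1#3 cells, 306 of 16868 genes tested differed after ABS at an adjusted p under 0.05 (1.81%). Of these, 258 were higher (1.53% of genes tested) and 48 lower (0.285%). At these shares, a list of 30 genes or fewer is expected to hold few calls or none. The change reached 2-fold in 83, of which 75 rose and 8 fell, and the median log2 fold change was 0.69 among genes that rose and -0.47 among genes that fell. In all 306 the 3 ABS libraries lay outside the range of the 3 unexposed ones, as they did in 24.9% of all genes tested. Lack of overlap is stated for single genes below as a description, since it held for every gene that passed. Above a mean of 1 on the log2 CPM scale, the rises were led by the NR4A receptors, inducible HSP70 chaperones, FOS family and EGR genes. ER chaperones, NF-kB pathway genes and p53 targets rose less, with list medians of 0.36, 0.30 and 0.09. KCNF1 and NFATC2, outside these groups, rose more than any called member of those lists. Above the same level, MT-TF, MT-TV and MT-TH, which encode mitochondrial tRNAs, fell furthest.

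The fit pooled the spread over 18 FLO1 libraries, and the count of genes changed with the libraries in it. Leaving out ABS replicate 2 of the shControl line, which differed from its own replicates more than any other FLO1 library, raised the count to 743. Leaving out any 1 of the 6 shAPE1#3 libraries lowered it to between 163 (without unexposed replicate 2) and 190 (without ABS replicate 2), and 134 genes, 125 higher and 9 lower, passed each time.

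Promoter stretches are shown for 3 groups of genes, taken from RefSeq windows (GRCh38.p14). They are written on the gene's own strand, with each motif match in capitals. Only genes with a match are shown. HSPA1A, DNAJB1, HERPUD1, SDF2L1, NR4A1, NR4A3 and FOS were looked up for a motif of these groups too. They gave no stretch because a match or a window was lacking. The first group holds the inducible HSP70 gene HSPA6, which rose, and the constitutive HSP70 gene HSPA8, which fell. Capitals mark the heat shock element, the binding motif of heat shock factor 1, on either strand: GAA, NN, TTC, NN, GAA with no gap between the pieces.
HSPA6, chr1:161524446-161524498, plus strand: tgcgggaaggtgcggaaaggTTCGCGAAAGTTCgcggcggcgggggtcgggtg
HSPA8, chr11:123062159-123062386, minus strand: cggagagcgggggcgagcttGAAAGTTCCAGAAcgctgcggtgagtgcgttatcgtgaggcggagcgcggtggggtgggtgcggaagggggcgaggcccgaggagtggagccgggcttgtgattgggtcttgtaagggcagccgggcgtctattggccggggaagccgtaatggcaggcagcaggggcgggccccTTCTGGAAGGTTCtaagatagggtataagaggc

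The second group holds 3 ER stress genes that rose. Capitals mark the ER stress response element on either strand, CCAAT and CCACG with 9 free bases between them, which ATF6 is known to bind together with NF-Y.
HSPA5, chr9:125241371-125241429, minus strand: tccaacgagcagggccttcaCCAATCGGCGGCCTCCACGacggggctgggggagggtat
CRELD2, chr22:49918534-49918592, plus strand: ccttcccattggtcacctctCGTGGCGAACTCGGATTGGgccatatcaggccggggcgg
XBP1, chr22:28800583-28800641, minus strand: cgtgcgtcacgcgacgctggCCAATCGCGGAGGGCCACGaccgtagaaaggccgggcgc

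The third group holds the early gene EGR1, the AP-1 gene MAFF and the potassium channel subunit gene KCNF1, all of which rose. Capitals mark CArG boxes, the motif of serum response factor, in EGR1 and the cAMP response element TGACGTCA in MAFF and KCNF1.
EGR1, chr5:138465354-138465425, plus strand: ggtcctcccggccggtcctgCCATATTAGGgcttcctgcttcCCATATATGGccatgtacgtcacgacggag
MAFF, chr22:38201920-38201967, plus strand: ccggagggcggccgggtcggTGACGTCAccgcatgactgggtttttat
KCNF1, chr2:10911895-10911933, plus strand: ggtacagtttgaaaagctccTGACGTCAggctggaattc

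Of 24 heat shock proteins and cochaperones, 7 rose and 1 fell; the median log2 fold change was 0.13, against -0.01 over all genes tested. HSPA6 (chr1:161524540-161526910), an HSP70 gene that is nearly silent without stress, was measured at 1.34, 1.32 and 1.504 CPM in unexposed libraries and at 19.7, 24.8 and 24.4 CPM after ABS. All 3 ABS libraries were more than 10 times above the unexposed ones, and the fold change was 16.6 (log2 4.05 ± 0.30, adjusted p = 1.44e-08). HSPA1A (chr6:31815464-31817946), the main stress-inducible HSP70 gene, went from 127.8, 116.0 and 110.4 CPM to 503.9, 577.7 and 578.9 CPM (4.69-fold, log2 2.23 ± 0.11, adjusted p = 9.95e-11). Its near-identical neighbour HSPA1B went from 64.5, 62.9 and 58.6 CPM to 208.7, 230.0 and 229.3 CPM (3.59-fold, log2 1.84 ± 0.11, adjusted p = 7.41e-10). The groups did not overlap for either gene, but reads that match both copies cannot be assigned, so the split between them is uncertain.

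Of the cochaperones of HSP70 in the list, DNAJB1, HSPH1 and BAG3 rose. DNAJB1, the HSP40 protein that hands clients to HSP70, was measured at 116.6, 113.4 and 115.7 CPM and, after ABS, at 280.4, 323.8 and 306.3 CPM (2.63-fold, log2 1.40 ± 0.09, adjusted p = 2.24e-09). The nucleotide exchange factor genes HSPH1 (log2 fold change 0.93 ± 0.11) and BAG3 (0.94 ± 0.09) rose less. CRYAB, a small heat shock protein gene, rose by 3.10 ± 0.55 on the log2 scale (adjusted p = 0.002) from few counts: 2, 3 and 3 in the unexposed libraries and 22, 23 and 24 after ABS. The constitutive HSP70 gene HSPA8 moved the other way, from 2679, 2563 and 2617 CPM to 1758, 1865 and 1917 CPM (1.42-fold lower, log2 -0.50 ± 0.07, adjusted p = 0.000139). All 3 ABS libraries of HSPA8 were below all 3 unexposed ones. The heat shock element shown for these genes was present upstream of 0.433% of tested genes with a window, in 1 of 6 list members that rose, in HSPA8, and in 4 of 15 that did not pass.

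**Figure D1:**
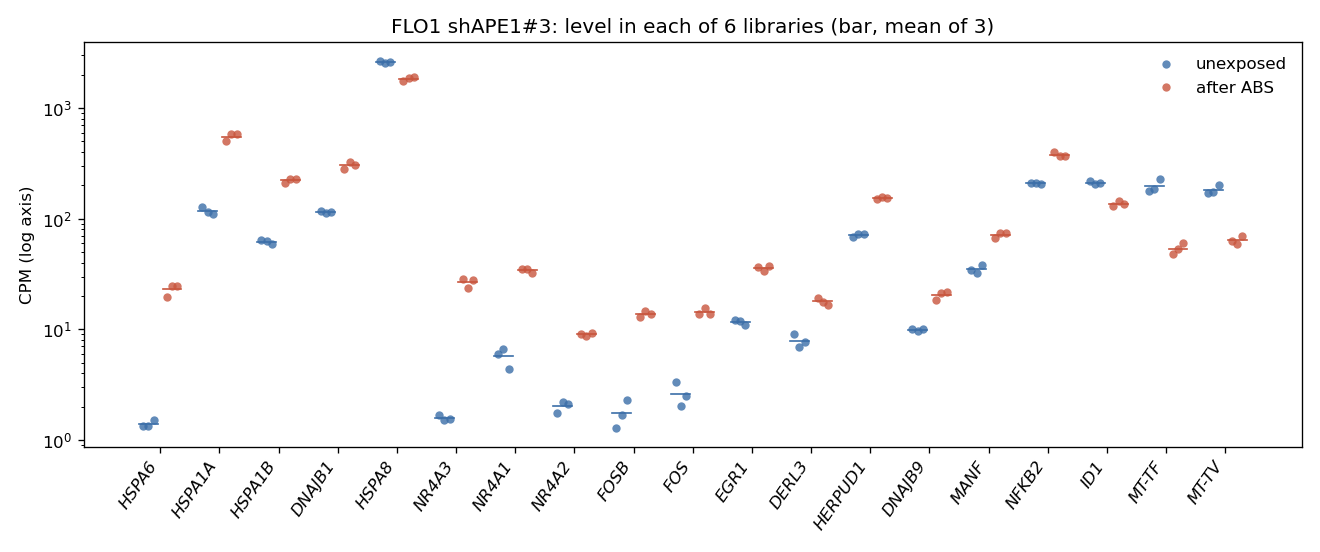
CPM on a log axis of 19 named genes in the 3 unexposed (blue) and 3 ABS (orange) libraries of FLO1 shAPE1#3, with a bar at each mean. Groups do not overlap for any gene shown, which held for all 306 genes that passed. HSPA8, ID1 and the 2 mitochondrial tRNA genes at the right were lower after ABS, the other 15 higher.

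The NR4A receptors, ligand-independent nuclear receptors of the immediate early class, all rose. NR4A3 (chr9:99821855-99866891) was measured at 1.67, 1.52 and 1.55 CPM without ABS and at 28.3, 23.6 and 27.8 CPM after it (16.8-fold, log2 4.07 ± 0.23, adjusted p = 2.43e-10). NR4A1 went from 5.95, 6.70 and 4.39 CPM to 35.1, 35.3 and 32.3 CPM (5.95-fold, log2 2.57 ± 0.18, adjusted p = 4.59e-09). NR4A2 went from 1.74, 2.21 and 2.13 CPM to 9.15, 8.68 and 9.17 CPM (4.46-fold, log2 2.16 ± 0.20, adjusted p = 3.43e-07). In each of the 3 genes the lowest ABS library was at least 3 times as high as the highest unexposed one.

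The NR4A genes belong to a list of 25 early genes, of which 12 rose and none fell, with a median log2 fold change of 0.23. All 4 EGR genes, zinc finger factors downstream of ERK, were among them. EGR1 (chr5:138465490-138469315) was measured at 12.1, 11.9 and 10.9 CPM and after ABS at 36.9, 33.8 and 37.7 CPM (3.10-fold, log2 1.63 ± 0.10, adjusted p = 9.34e-10). EGR3 rose by 1.72 ± 0.16 on the log2 scale. EGR4 had 13, 10 and 6 counts in the unexposed libraries and 123, 129 and 157 after ABS (log2 3.87 ± 0.25, adjusted p = 1.18e-09), and EGR2 had 10, 8 and 3 against 16, 35 and 50 (log2 2.29 ± 0.44, adjusted p = 0.00449). ARC, a synaptic plasticity gene and target of serum response factor, rose by 1.86 ± 0.16, RRAD, a small GTPase gene, by 1.64 ± 0.16, and KLF10 and KLF4 by 0.64 ± 0.08 and 0.57 ± 0.10. CArG boxes were found upstream of EGR1 and EGR2, 2 of 7 list members that rose and have a window, and of 1 of 11 that did not pass; 1.5% of tested genes with a window have one.

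Of 13 tested AP-1 genes, which encode the FOS, JUN, ATF and MAF partners of a dimeric transcription factor, 7 rose and none fell (median log2 fold change 0.43). FOSB was measured at 1.27, 1.68 and 2.30 CPM without ABS and at 13.0, 14.6 and 13.9 CPM with it (8.14-fold, log2 3.02 ± 0.31, adjusted p = 1.59e-06). FOS (chr14:75278774-75282230) went from 3.31, 2.01 and 2.51 CPM to 13.7, 15.5 and 13.6 CPM (5.42-fold, log2 2.44 ± 0.22, adjusted p = 2.84e-07). The ABS libraries of both genes lay well above the unexposed ones. MAFF, a small MAF gene, and ATF3, a stress-induced repressor, rose by 1.35 ± 0.11 and 1.23 ± 0.10 on the log2 scale. FOSL1 (0.53 ± 0.12), JUN (0.43 ± 0.08) and JUND (0.60 ± 0.13) rose by less than 2-fold.

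The cAMP response element shown for MAFF and KCNF1, a potassium channel subunit gene (log2 fold change 1.48 ± 0.20), was present upstream of 18 of 194 genes that rose and have a window (9.28%), and of none of 34 that fell. Over all tested genes with a window the share was 3.47%, which leaves few to be expected among 34. In the list of early genes it was present in 0 of 7 members that rose and have a window, and in 1 of 11 that did not pass. Among the 18 were also the AP-1 gene JUND, the eIF2α phosphatase regulator PPP1R15A and RCAN1, an inhibitor of calcineurin. NFATC2, a transcription factor that calcineurin activates, went from 30.9, 35.3 and 34.4 CPM to 94.1, 72.6 and 84.2 CPM (2.49-fold, log2 1.32 ± 0.12, adjusted p = 5.17e-07). Its groups did not overlap.

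Feedback genes of the MAP kinase pathway moved less. Of 16 genes, 4 rose and none fell: PHLDA1 (log2 fold change 0.63 ± 0.07), and the phosphatase genes DUSP8 (0.54 ± 0.13), DUSP5 (0.41 ± 0.09) and DUSP16 (0.34 ± 0.08). Only 1 of the 4 passed without unexposed replicate 2 or 3 or ABS replicate 2 or 3, and 2 without ABS replicate 1. Of 7 tested genes of the EGF receptor family and its ligands, HBEGF alone rose, from 19.3, 21.2 and 21.02 CPM to 33.3, 33.0 and 34.1 CPM (1.63-fold, log2 0.71 ± 0.09, adjusted p = 3.08e-05). HBEGF encodes a membrane-anchored ligand of the EGF receptor that is shed on stress.

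ER chaperones and unfolded protein response genes rose as a group: 12 of 26 passed, none fell, 25 of 26 had a positive log2 fold change, and the median was 0.36. The summed level of the 26 genes was 6637 to 6888 CPM in unexposed libraries and 8784 to 9010 CPM after ABS. HERPUD1 (chr16:56932048-56944863), a membrane component of ER-associated degradation, was measured at 68.0, 72.0 and 72.4 CPM and after ABS at 149.7, 158.6 and 154.6 CPM (2.18-fold, log2 1.12 ± 0.09, adjusted p = 3.30e-08). DERL3, a retrotranslocation factor, went from 9.09, 6.98 and 7.61 CPM to 19.3, 17.6 and 16.7 CPM (2.26-fold, log2 1.17 ± 0.14, adjusted p = 2.35e-05). In both, the lowest ABS library was above the highest unexposed one.

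DNAJB9, an IRE1 pathway cochaperone, went from 10.1, 9.65 and 10.1 CPM to 18.5, 21.2 and 21.6 CPM (2.06-fold, log2 1.04 ± 0.16, adjusted p = 0.000317). MANF, a secreted ER stress protein, went from 34.4, 32.3 and 38.2 CPM to 66.5, 73.9 and 74.0 CPM (2.05-fold, log2 1.03 ± 0.11, adjusted p = 1.87e-06). Neither gene's groups overlapped. HSPA5, the ER's HSP70 chaperone, has its promoter stretch above and was named for it after its values were seen: it stood at 1292 ± 49.4 CPM (SD, n = 3) without ABS and at 2530 ± 52.4 CPM with it (log2 0.97 ± 0.07, adjusted p = 2.00e-08). CRELD2 rose by 0.69 ± 0.13 and XBP1, the factor that IRE1 splices, by 0.53 ± 0.08. The ER stress response element was present upstream of 0.138% of tested genes with a window, of 3 of 11 list members that rose and of 4 of 13 that did not pass.

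The integrated stress response list, which holds the PERK branch and ATF4 targets, was mixed: of 26 genes 2 rose and 1 fell, with a median log2 fold change of -0.01. DDIT3, the CHOP factor, went from 28.8, 25.7 and 27.6 CPM to 39.0, 47.1 and 44.7 CPM (1.59-fold, log2 0.67 ± 0.12, adjusted p = 0.00273). PPP1R15A (GADD34) went from 52.4, 51.9 and 56.2 CPM to 78.4, 81.5 and 77.5 CPM (1.48-fold, log2 0.56 ± 0.09, adjusted p = 0.000898). DDIT4, an inhibitor of mTORC1, fell from 204.0, 193.3 and 209.7 CPM to 135.9, 143.0 and 140.2 CPM (1.45-fold lower, log2 -0.53 ± 0.12, adjusted p = 0.0164). DDIT4 did not pass when any 1 of the 6 shAPE1#3 libraries was left out. Without shControl ABS replicate 2 the list had 3 higher and 3 lower.

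**Figure D2:**
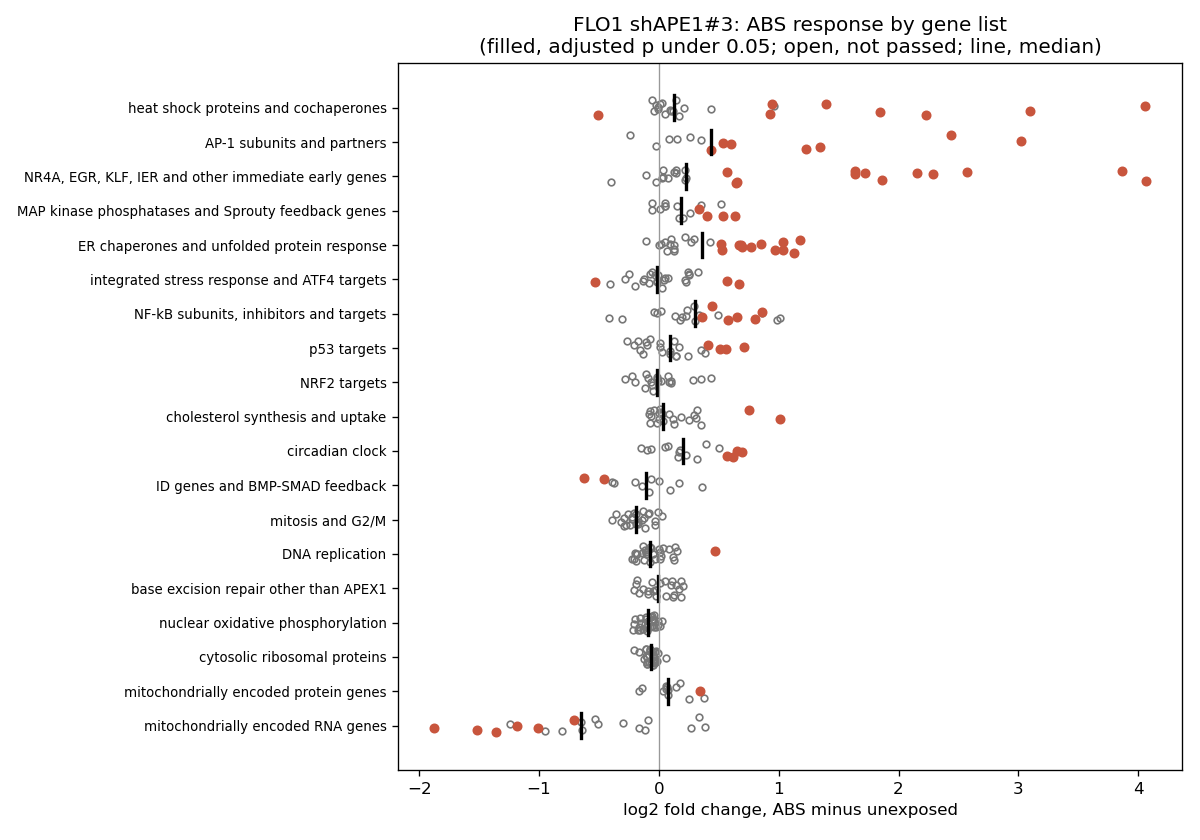
Log2 fold change (ABS minus unexposed) in FLO1 shAPE1#3 of each tested gene in 19 lists; filled points have an adjusted p under 0.05, open points do not, and the line is the list's median. Most filled points of the stress and early response lists lie to the right, with HSPA8 and DDIT4 to the left. The NRF2 list has no filled point. Filled points lie to the left in the ID list, with ID1 and ID2, and in the mitochondrial RNA list, where 6 of 20 genes fell.

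NF-kB pathway genes rose in 6 of 23 tested cases, none fell, and the median log2 fold change was 0.30. NFKB2, which encodes the p100 subunit of the non-canonical pathway, went from 210.4, 211.4 and 204.4 CPM to 403.4, 366.4 and 369.5 CPM (1.82-fold, log2 0.86 ± 0.11, adjusted p = 4.65e-05). TRAF1, a signalling adaptor and NF-kB target, went from 101.6, 92.8 and 90.6 CPM to 178.1, 155.3 and 163.5 CPM (1.74-fold, log2 0.80 ± 0.12, adjusted p = 0.000196). BIRC3, an apoptosis inhibitor, rose by 0.65 ± 0.15 and the cytokine gene LIF by 0.44 ± 0.11. The groups of NFKB2 and TRAF1 did not overlap. The count of 6 fell to 3 without any 1 of the unexposed replicates, ABS replicate 1 or ABS replicate 3.

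Of 24 tested p53 targets, 4 rose and none fell. GADD45A, a stress-induced growth arrest gene, went from 100.5, 105.9 and 117.7 CPM to 165.9, 189.8 and 174.9 CPM (1.64-fold, log2 0.71 ± 0.09, adjusted p = 6.02e-05). CDKN1A, the p21 cell cycle inhibitor, went from 82.0, 76.1 and 77.4 CPM to 117.4, 118.0 and 112.1 CPM (1.48-fold, log2 0.56 ± 0.09, adjusted p = 0.00101). The nuclease gene AEN (0.51 ± 0.10) and the death receptor gene TNFRSF10B (0.41 ± 0.07) rose less. The list's median was 0.09.

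Genes of the mitochondrial chromosome changed in both directions. Of 20 tested mitochondrial RNA genes other than protein genes, 6 fell and none rose, with a median log2 fold change of -0.65. With any 1 of the 6 libraries left out, 4 or 5 of them passed. The other 14 did not pass, and 3 of these, MT-TN (log2 fold change 0.39 ± 0.18), MT-TC (0.27 ± 0.11) and MT-TY (0.34 ± 0.14), had positive values. MT-TF, the tRNA for phenylalanine and the first gene of the heavy strand transcript, was measured at 179.6, 185.2 and 227.9 CPM without ABS and at 47.9, 52.8 and 60.4 CPM with it (3.67-fold lower, log2 -1.88 ± 0.13, adjusted p = 2.66e-09). MT-TV, the tRNA for valine, went from 169.6, 175.9 and 202.2 CPM to 62.3, 59.4 and 69.4 CPM (2.87-fold lower, log2 -1.52 ± 0.12, adjusted p = 3.94e-08). No ABS library reached the unexposed range in either. The genes, on the reference mitochondrial chromosome as annotated in GENCODE, are shown because these short intervals carry the deepest fall.
MT-TF, chrM:577-647, plus strand: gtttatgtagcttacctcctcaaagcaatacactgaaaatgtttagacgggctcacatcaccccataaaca
MT-TV, chrM:1602-1670, plus strand: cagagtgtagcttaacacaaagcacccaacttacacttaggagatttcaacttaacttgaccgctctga

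MT-TF and MT-TV are the tRNA genes on either side of the small ribosomal RNA gene. That gene had no row in the counts used here, so its level could not be analysed. The libraries were made from polyadenylated RNA, and whether counts over these short genes come from mature tRNA or from longer transcripts that span them was not tested. MT-TM (log2 fold change -1.36 ± 0.30), MT-TH (-1.19 ± 0.22), MT-TL2 (-1.01 ± 0.21) and MT-TQ (-0.70 ± 0.13), the tRNAs for methionine, histidine, leucine and glutamine, also fell. Among the 13 protein genes of the same chromosome, MT-ND4, a complex I subunit, rose from 2511, 2548 and 2605 CPM to 3411, 3101 and 3233 CPM (1.27-fold, log2 0.35 ± 0.08, adjusted p = 0.0341). None of the 13 passed without any 1 unexposed replicate of shAPE1#3, ABS replicate 1 or 3, shAPE1#1 unexposed replicate 2 or shAPE1#1 ABS replicate 2, while 2 and 3 rose without shControl ABS replicates 1 and 2. The median of the 13 was 0.08. The share of counts in mitochondrial genes was 3.03 to 3.16% in the unexposed libraries and 3.31 to 3.61% after ABS.

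**Figure D3:**
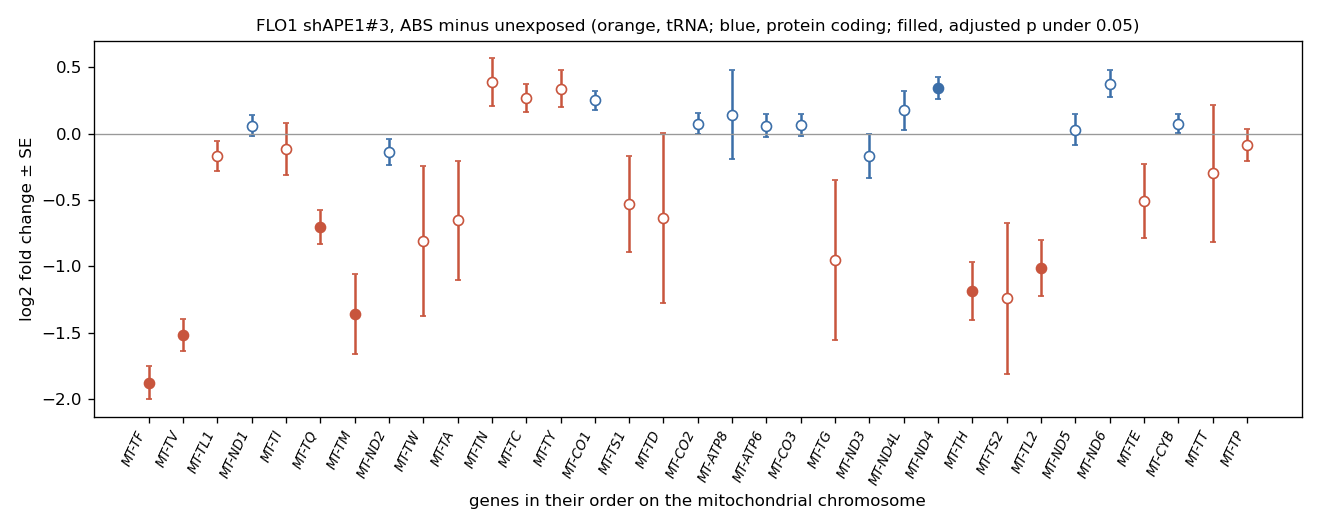
Log2 fold change ± SE (ABS minus unexposed, 3 libraries each) of the tested mitochondrial genes in FLO1 shAPE1#3, in chromosome order; orange points are tRNA genes, blue points protein genes, and filled points have an adjusted p under 0.05. MT-TF and MT-TV, at the left, lie at -1.88 and -1.52, while the protein genes lie near or above 0.

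None of 30 nuclear genes of oxidative phosphorylation passed the test; 28 of 30 had a negative log2 fold change and the median was -0.09. ATP5F1B of the ATP synthase stood at 1543, 1450 and 1490 CPM and at 1280, 1389 and 1358 CPM after ABS (log2 -0.15 ± 0.08, adjusted p = 0.439). None of 30 cytosolic ribosomal protein genes passed either, with 29 of 30 negative and a median of -0.07.

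Among genes of growth factor signalling that fell were ID1 and ID2, targets of BMP-SMAD signalling that block basic helix-loop-helix factors. ID1 (chr20:31605283-31606515) went from 219.5, 205.0 and 208.6 CPM to 130.0, 144.4 and 136.6 CPM (1.54-fold lower, log2 -0.62 ± 0.09, adjusted p = 0.000196). ID2 went from 55.9, 56.1 and 59.1 CPM to 37.7, 45.7 and 41.03 CPM (1.37-fold lower, log2 -0.46 ± 0.09, adjusted p = 0.00606). The groups of ID1 and ID2 did not overlap, and these 2 were the only ones of 12 tested list members to pass. Without ABS replicate 1 only 1 of the 12 passed, and without shControl ABS replicate 2 there were 4, all lower. In the TGF-beta list of 23 genes, the co-receptor gene TGFBR3 fell (-0.57 ± 0.10).

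Other genes that fell by the largest amounts were CD37, a tetraspanin gene, MIR600HG, a microRNA host gene, and CDH23, a cadherin gene. CD37 went from 3.49, 4.19 and 4.10 CPM to 1.72, 1.76 and 2.07 CPM (2.10-fold lower, log2 -1.07 ± 0.20, adjusted p = 0.00418). MIR600HG (log2 -0.83 ± 0.15) and CDH23 (-0.81 ± 0.17) fell by less than 2-fold. KLF9, a glucocorticoid-responsive repressor, fell by 0.57 on the log2 scale (adjusted p = 0.0116) and did not pass without unexposed replicate 2 or ABS replicate 1. CDH23 did not pass without unexposed replicate 2 or 3 or ABS replicate 2 or 3.

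None of 25 mitosis and G2/M genes passed in the fit used here, although 24 of 25 had a negative log2 fold change, with a median of -0.19; in 13 of 25 all ABS libraries were below the unexposed ones, as in 12% of all genes tested. CDC20, the activator of the anaphase-promoting complex, stood at 519.8, 509.8 and 499.1 CPM and at 435.9, 431.6 and 438.8 CPM after ABS (log2 -0.23 ± 0.09, adjusted p = 0.332). TPX2, a spindle assembly factor, stood at 577.3, 595.8 and 634.4 CPM and at 513.2, 517.9 and 533.2 CPM (log2 -0.21 ± 0.08, adjusted p = 0.232). Without shControl ABS replicate 2, 7 of the 25 passed, all lower, without shControl ABS replicate 1 there was 1, and 9 were lower in a fit of the 6 shAPE1#3 libraries alone. Of 30 DNA replication genes, CDC6, the licensing factor, rose from 83.8, 88.1 and 96.5 CPM to 118.5, 127.8 and 125.6 CPM (1.39-fold, log2 0.47 ± 0.09, adjusted p = 0.00348).

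None of 24 base excision repair genes other than APEX1 passed (median log2 fold change -0.01, 12 positive and 12 negative), while 1 was lower with DESeq2 and 2 with a GC correction. PARP1, the strand break sensor, stood at 449.8, 461.9 and 457.1 CPM and at 411.5, 388.0 and 398.7 CPM after ABS (log2 -0.19 ± 0.07, adjusted p = 0.246). Its groups did not overlap, which was so for 24.9% of all genes. None of 28 homologous recombination and Fanconi genes passed; 2 rose when shControl ABS replicate 2 was left out, and 1 when shControl replicate 2, shControl ABS replicate 1 or shAPE1#1 ABS replicate 1 was.

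Metabolic lists held few changes, and few are to be expected in lists of this size where 1.81% of all genes tested passed. In the list of cholesterol genes 8.7% of tested genes passed. Of 23 genes of cholesterol synthesis and uptake, STARD4, a sterol carrier, rose from 10.5, 10.4 and 11.99 CPM to 22.0, 21.5 and 22.7 CPM (2.02-fold, log2 1.01 ± 0.18, adjusted p = 0.00161), and HSD17B7, a sterol reductase gene, rose by 0.75 ± 0.12. Without shControl ABS replicate 2 there were 5 higher members. None of 20 NRF2 targets passed (median -0.02); 2 were higher and 1 lower without shControl ABS replicate 2, and 1 was higher without shControl ABS replicate 1. None of 10 fatty acid synthesis genes and none of 6 metallothioneins passed, and 1 fatty acid gene was lower without shControl ABS replicate 2 or shAPE1#1 ABS replicate 1. None of 9 tested bile acid receptors and transporters and none of 13 acid and bicarbonate transport genes passed in any fit that left out 1 library. VDR, a nuclear receptor that secondary bile acids bind, stood at 20.1, 21.7 and 19.4 CPM and at 24.3, 21.1 and 22.8 CPM after ABS (log2 0.15 ± 0.11, adjusted p = 0.663).

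Smaller sets of risers lay in other lists. Of 16 clock genes 4 rose and none fell: the repressors NR1D1 (log2 fold change 0.69 ± 0.15), PER1 (0.65 ± 0.15) and BHLHE40 (0.57 ± 0.08), and the activator BMAL1 (0.62 ± 0.10), while 2 passed without unexposed replicate 1 or 3 or ABS replicate 1. ANGPTL4, a lipase inhibitor and the 1 riser of 25 hypoxia genes, went from 123.2, 119.6 and 116.5 CPM to 252.0, 241.2 and 214.9 CPM (1.97-fold, log2 0.98 ± 0.11, adjusted p = 1.35e-05). Without shControl ABS replicate 2 there were 2 hypoxia risers. TFEB, the regulator of lysosome genes, rose by 0.90 ± 0.18, and the autophagy genes ULK1 (0.51 ± 0.13) and GABARAPL1 (0.42 ± 0.10) rose among 24 lysosome and autophagy genes. ULK1 and GABARAPL1 were close to the threshold (adjusted p = 0.0402 each): the count was 0 without unexposed replicate 3, and 1 without unexposed replicate 1 or 2, ABS replicate 2, shControl replicate 3, shControl ABS replicate 3, shAPE1#1 replicate 1, 2 or 3, or shAPE1#1 ABS replicate 2. ANKRD1 was the riser of 21 YAP target genes (1.38 ± 0.28), and did not pass without unexposed replicate 1 or 2 or ABS replicate 2; without shControl replicate 2, shControl ABS replicate 1 or 2 or shAPE1#1 ABS replicate 1 the list had 2 risers. The histone gene H4C8 rose by 0.46 ± 0.11 on the log2 scale, and did not pass without unexposed replicate 1, 2 or 3 or ABS replicate 2 or 3. None of 27 interferon-stimulated genes passed; without shControl ABS replicate 2, 1 was higher.

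Among marker lists of cell types, none of 16 tested epithelial, 13 columnar, 7 squamous, 3 fibroblast and 3 endothelial markers passed, apart from 1 epithelial gene without shControl replicate 2 or shControl ABS replicate 2. The summed level of the epithelial list was 2980 to 3029 CPM before and 3111 to 3124 CPM after ABS, that of the columnar list 139.5 to 155.1 and 143.1 to 167.5 CPM, that of the immune list 6.87 to 8.15 and 8.86 to 11.9 CPM, and that of the endothelial list 2.79 to 3.09 and 4.22 to 4.82 CPM. The 3 tested endothelial genes, CLDN5, VWF and CDH5, had a median log2 fold change of 0.64, with PECAM1 at no more than 0.108 CPM. Their ABS libraries were all above the unexposed ones, as in 12.9% of all genes tested, but none of the 3 passed. CDH5 and VWF lay at no more than 0.772 and 0.741 CPM in any library. The columnar median was -0.46, and MUC5AC, TFF1 and TFF3 had higher levels in 1 unexposed and 1 ABS library, as given above. The part of these genes in the other changes was not tested. One immune marker rose, ITGAM, the integrin alpha M gene, from 2.94, 2.76 and 2.42 CPM to 5.97, 4.73 and 5.14 CPM (1.93-fold, log2 0.95 ± 0.15, adjusted p = 0.000496), with PTPRC at 0 in all 6 libraries. One mesenchymal marker rose, TGFBI, a secreted TGF-beta target (0.78 ± 0.11).

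Among genes with a mean under 1 on the log2 CPM scale, which the rule for naming left out unless a list held them, 40 rose and 3 fell. FOXJ1, the regulator of motile cilia, had the largest fitted change of all and is named here after its values were seen. It had 1, 2 and 0 counts in the unexposed libraries and 57, 66 and 83 counts after ABS (adjusted p = 4.64e-07).

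The leading lists were counted again without unexposed replicate 1 and ABS replicate 3, the libraries with the highest MUC5AC levels. In that fit 6 heat shock genes rose and 1 fell, 9 early genes, 8 ER genes, 4 AP-1 genes, 2 NF-kB genes and 2 p53 targets rose, and 3 mitochondrial tRNA genes fell. The part of the MUC5AC, TFF1 and TFF3 counts in these changes was not tested.

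The response of shAPE1#3 cells was then set against that of shControl and shAPE1#1 cells, whose libraries it does not share. The same test called 506 genes in shControl cells (3% of genes tested), 419 of them higher (2.48%) and 87 lower (0.516%), and 845 in shAPE1#1 cells (5.01%), 496 higher (2.94%) and 349 lower (2.07%). Of the 306 genes of shAPE1#3 cells, 243 were also called in shControl with the same sign, which is 79.4% of the 306 and 48.0% of the 506. With shAPE1#1 the overlap was 192 genes, 62.7% of the 306 and 22.7% of the 845. No gene was called with opposite signs in either pairing, and 173 were called in all 3 lines. A further 44, 35 higher and 9 lower, were called in shAPE1#3 cells and in neither other line; this choice favours a difference. At an unadjusted p under 0.05 the response of 6 of the 44 differed from shControl and that of 21 from shAPE1#1, where the shares over all genes were 2.02% and 5.33%, and none passed adjustment.

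**Figure D4:**
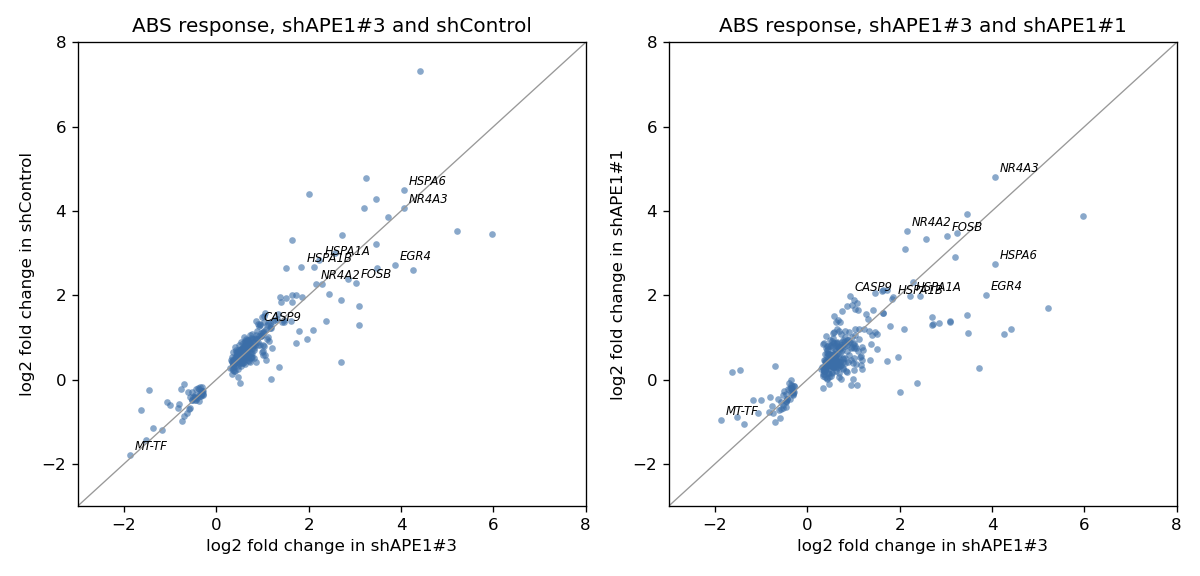
Log2 fold change after ABS of the 306 genes called in FLO1 shAPE1#3 (x axis) against the same genes in shControl (left, y axis) and shAPE1#1 (right, y axis); the line marks equal responses. The genes were chosen for the x axis values, and 305 of 306 in shControl and 297 of 306 in shAPE1#1 had the same sign.

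No gene's response differed between shAPE1#3 and shControl cells at an adjusted p under 0.05 (0% of 16868 genes; edgeR), while 341 differed at an unadjusted p under 0.05 (2.02%) and DESeq2 called 1. The smallest adjusted p was that of HSPA1B, 0.359. Its response was 1.84 in shAPE1#3 and 2.68 in shControl on the log2 scale, a difference of -0.83 with a 95% interval of -1.15 to -0.51 (unadjusted p = 2.13e-05). HSPA1A responded by 2.23 against 2.83 (difference -0.60, interval -0.92 to -0.27) and DNAJB1 by 1.40 against 1.83 (difference -0.43, interval -0.70 to -0.17); neither passed adjustment (adjusted p = 0.9999 for each in the edgeR test). For HSPA6 the responses were 4.05 and 4.49, and the interval of the difference, -1.37 to 0.51, included 0. EGR4 had the opposite difference, 3.87 against 2.73 (1.14, interval 0.39 to 1.89), and did not pass adjustment either. NR4A3 responded by 4.07 in both, with an interval from -1.02 to 1.02. A difference of NR4A3 within that interval was not detectable at this depth and number of libraries.

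Between shAPE1#3 and shAPE1#1 cells, 4 responses differed (0.0237% of genes tested; 899 differed at an unadjusted p under 0.05), all of them smaller in shAPE1#3. CHMP1B, a subunit of the ESCRT-III membrane scission machinery, went from 58.9, 57.8 and 58.1 CPM to 92.5, 107.0 and 96.4 CPM in shAPE1#3, and from 62.0, 61.2 and 64.7 CPM to 189.1, 184.2 and 202.5 CPM in shAPE1#1. The log2 fold changes were 0.76 and 1.62, a difference of -0.86 ± 0.12 (adjusted p = 0.00325). PHLDA1, an early response gene, went from 59.9, 61.2 and 58.9 CPM to 94.8, 91.7 and 92.5 CPM in shAPE1#3, and after ABS reached 153.3, 154.9 and 153.7 CPM in shAPE1#1 (difference -0.74 ± 0.10, adjusted p = 0.00325). After ABS, the 3 libraries of shAPE1#3 lay below the 3 of shAPE1#1 for both genes.

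CASP9, the initiator caspase of the mitochondrial pathway, went from 8.94, 8.03 and 8.23 CPM to 14.5, 17.7 and 15.4 CPM in shAPE1#3 and rose by 1.99 on the log2 scale in shAPE1#1 against 0.92 (difference -1.08 ± 0.18, adjusted p = 0.0278). CSF2, which encodes the cytokine GM-CSF, went from 11.1, 10.3 and 10.7 CPM to 15.1, 17.0 and 15.8 CPM, a response of 0.58 against 1.51 (difference -0.93 ± 0.16, adjusted p = 0.0342). For CSF2 the unexposed level also differed: 7.50, 6.82 and 7.13 CPM in shAPE1#1, below all 3 unexposed shAPE1#3 libraries. The responses of the 4 genes in shControl were 0.98, 0.88, 1.28 and 0.60. The count of 4 rose to 48 without shControl ABS replicate 2 and to 16 without shControl ABS replicate 1. It was 2 in the fits without unexposed shAPE1#3 replicate 1, 2 or 3, shAPE1#3 ABS replicate 1 or 3, shControl replicate 1, shAPE1#1 replicate 2 or 3, or shAPE1#1 ABS replicate 3.

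**Figure D5:**
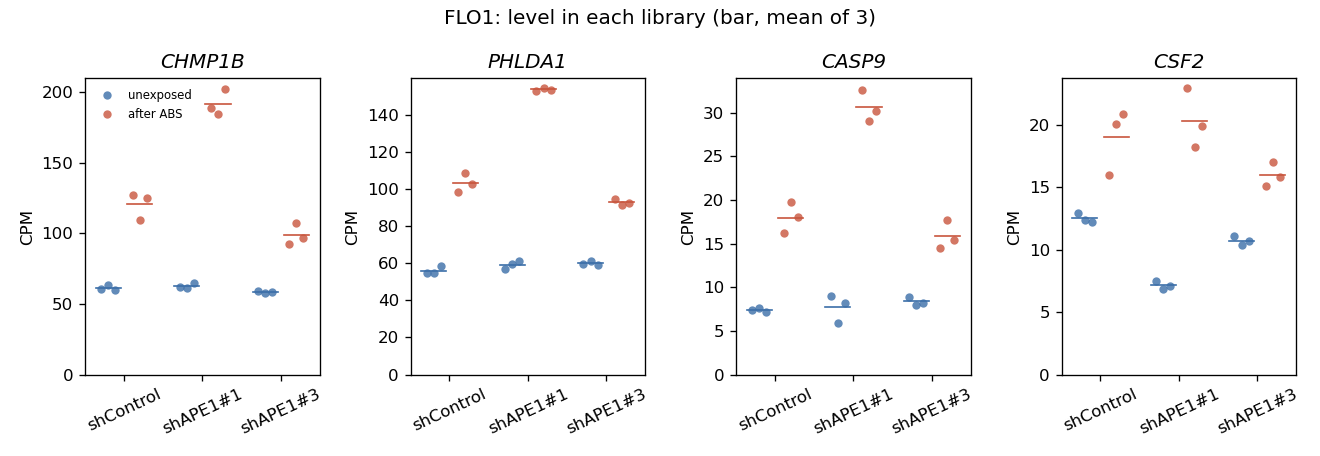
CPM of CHMP1B, PHLDA1, CASP9 and CSF2 in each unexposed (blue) and ABS (orange) library of the 3 FLO1 lines, with a bar at each mean of 3. After ABS the shAPE1#3 libraries lie below the shAPE1#1 libraries in each panel.

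Several genes of the response lists were smaller or larger than in shAPE1#1 by amounts whose 95% interval left out 0 but which did not pass adjustment. NR4A2 responded by 2.16 in shAPE1#3 and 3.53 in shAPE1#1 (difference -1.37, interval -1.99 to -0.76, adjusted p = 0.126), and HBEGF by 0.71 and 1.36 (difference -0.65, interval -0.91 to -0.40, adjusted p = 0.0822). DERL3 responded by 1.17 and 0.34 (difference 0.84, interval 0.40 to 1.27, adjusted p = 0.283). Responses of HSPA6 (difference 1.32, interval 0.34 to 2.30) and DNAJB1 (0.34, interval 0.08 to 0.61) were also larger in shAPE1#3. MT-TF fell by 1.88 in shAPE1#3 and 0.95 in shAPE1#1 on the log2 scale (difference -0.93, interval -1.29 to -0.56, adjusted p = 0.0822), and by 1.79 in shControl.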

How the data were processed

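Polyadenylated RNA of 18 FLO1 libraries, in 6 groups of 3, was used. The authors deposited raw counts per gene for 57500 Ensembl genes; the submitters' processing notes name Trimmomatic 0.36, STAR 2.5.2b, featureCounts from Subread 1.5.2 and GRCh38. Neither the annotation release nor the use of strand is stated there, so genes that overlap and genes antisense to each other cannot be told apart. Symbols came from a table of gene names and from GENCODE, coordinates from GENCODE, and promoter windows from RefSeq, which held 11559 of 16794 tested symbols; 250 bases before the start were searched on both strands. Rows without a symbol held 0.0183% of counts.

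Genes passing edgeR's default expression filter were tested with edgeR 4.0.16 (R 4.3.3; TMM scaling, robust quasi-likelihood test, 1 coefficient per group over the 18 libraries, Benjamini-Hochberg adjustment over all genes, threshold 0.05). A response difference is the contrast of 2 log2 fold changes. CPM are on the TMM-scaled library size; errors after ± are SE of log2 fold changes or, where stated, SD; 95% intervals use edgeR's degrees of freedom. CPM are not scaled by length, so levels were compared between genes only to pick the genes named from lists without a call. The test was also run on simulated counts in which no library stood apart, so that check does not cover the effects of single libraries given above. Alternatives were DESeq2 1.42.0, RLE scaling, other filters, the compared groups alone, a replicate block, a GC correction and leaving out libraries.

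Named genes were APEX1, up to 20 higher and 20 lower genes by size of change whose mean log2 CPM was 1 or more and whose groups do not overlap, up to 8 genes each way per response difference, and up to 4 called members of each of 38 lists (or the 2 with the highest levels). The members and lists were chosen with earlier results of these data known. Same-numbered libraries did not deviate together, so no pairing was used. A few genes are not reported here.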

Additional observations from a re-analysis of the deposited data

Results flagged for a closer look

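The ABS response of 4 genes differed between shAPE1#3 and shAPE1#1 cells by the test of the difference itself, each smaller in shAPE1#3. The differences of the log2 fold changes were -0.86 for CHMP1B, -0.74 for PHLDA1, -1.08 for CASP9 and -0.93 for CSF2. All 3 ABS libraries of shAPE1#3 were below all 3 of shAPE1#1 in each gene. CASP9 lost the call in 11 and CSF2 in 14 of the alternatives run, CHMP1B and PHLDA1 in 1 each, the replicate block.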

How the results depend on the processing

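The count of 306 genes in FLO1 shAPE1#3 became 498 with DESeq2, 924 with only the groups compared and 1148 with a GC correction. It was 146 with the replicate block, and 657 with GC correction and replicate block together. Without the 2 libraries with the highest MUC5AC levels it was 104, and it ranged from 163 to 743 over single libraries left out. The GC correction also changed the balance, to 563 higher and 585 lower. Of the 306, 304 were also called by DESeq2, 306 with the GC correction and 145 with the block. The difference from shControl had 1 call with DESeq2, 4 with no filter, 1 with GC correction, 1 with GC correction and replicate block, and 0 to 1 with a library left out. The difference from shAPE1#1 had 32 calls with DESeq2, 37 with no filter, 57 with only the groups compared, 0 with the replicate block, 76 with GC correction and 34 with GC correction and replicate block, and 2 to 48 with a library left out. The cause was not tested. No result reversed its direction in any alternative, and 44 of 88 named calls were kept in all 27. Same-numbered libraries of shAPE1#3 had correlations of -0.04, -0.04 and -0.02. Differences between responses had a median SE of 0.20, so differences of that size were not detectable in most single genes.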
